A study of Oryza sativa Japonica Group with 6 samples.

Results

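A cluster of 7 neighbouring class III peroxidase genes on chromosome 7 of rice, from LOC_Os07g47990 to LOC_Os07g48060, was described in cold-treated early seedlings. The members were chosen by their locus identifiers and by the measured difference between the genotypes, since the cluster was picked because one of its genes was higher and a pair of them lower in the overexpression plants. That difference is therefore given as a description, with no test. The files list 55986 loci, of which 22841 had a mean of at least 0.5 FPKM (read fragments divided by exon length and by the reads mapped) over the 6 libraries and were tested, and 5 of the 7 members were among them. LOC_Os07g48040 and LOC_Os07g48050 were below this level.

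The 6 libraries are RNA-seq of early seedlings with buds of about 5 mm, kept at 2 °C for 3 h. The control plants (ZH17) were nontransformed Zhonghua17, of the japonica type. The overexpression plants (OEZ) carried, in the same background, the coding region of the lipid transfer protein gene OsLTPL159 from the cold-tolerant introgression line IL112 behind the viral CaMV 35S promoter, which is active in most plant tissues. Each genotype has 3 biological replicates of 50 pooled plants, all of them chilled, so no unchilled plants enter the values. The sources used here do not say how many independent transformants the OEZ pools came from, so a difference between the genotypes cannot be told apart from one specific to the transformed line. In RNA from seedlings, which mix cell types, fewer cells of a type and less RNA per cell cannot be told apart.

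Class III peroxidases are secreted heme enzymes that use hydrogen peroxide to oxidise phenolic compounds. In the plant cell wall they couple lignin precursors and cross-link wall polymers, which stiffens the wall, and they take part in both the removal and the production of reactive oxygen species. The family is large in rice, and many of its members lie side by side in clusters of duplicated genes. Of the 7 members, LOC_Os07g47990, LOC_Os07g48010 and LOC_Os07g48020 are described as peroxidase precursors in the study's gene list. That list holds only genes the study called different between the genotypes. The remaining 4 members have no description there and are taken as peroxidases from the definition of the cluster.

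By locus number the cluster lies near the end of chromosome 7. The first member is number 4301 and the last number 4308 of the 4450 listed loci of the chromosome, with 142 loci after it. The span holds 1 locus that is not a member, LOC_Os07g48000, between LOC_Os07g47990 and LOC_Os07g48010, and it was listed at 0 in all 6 libraries. Just outside the cluster, LOC_Os07g47970 had 35.5, 36.2 and 35.1 FPKM in ZH17 and 32.2, 33.3 and 32.1 FPKM in OEZ. On the other side LOC_Os07g48070 was listed at 0 in every library, and LOC_Os07g48080 lay between 1.56 and 2.26 FPKM.

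Total FPKM per library was between 856329 and 902931, and between 27083 and 27345 loci were above 0. FPKM gives no read counts, so the absolute depth is unknown. The most frequent ratio between libraries of loci under 0.15 FPKM put the relative depth at 1.0 to 1.16 in ZH17 and 1.02 to 1.32 in OEZ, set against ZH17 replicate 1. OsLTPL159 (LOC_Os10g36160) had 131 to 141 FPKM in ZH17 and 2502 to 2540.0 FPKM in OEZ, as the genotype labels say. The summed marker genes of grain tissue differed among the OEZ pools. The 9 amylase and seed storage genes of the study's gene list summed to 78.6, 203 and 139.8 FPKM in ZH17, and to 6.32, 235.0 and 5.87 FPKM in OEZ, with 3 of the 9 genes, a glutelin gene and the prolamin genes PROLM20 and PROLM28, listed at 0 in at least 1 library. Of these 9 genes 0 rose and 1 fell past the thresholds given further on. From the same list, 11 chlorophyll A-B binding protein genes, which mark green tissue, summed to between 10130.0 and 10770.0 FPKM in ZH17. In OEZ they summed to between 5748 and 6783 FPKM, and 10 of them fell and 1 rose past the thresholds. That list holds genes that differed in these same 6 libraries, so these counts follow from the choice. Of all tested loci 2.98% passed. The part of grain and green tissue in the peroxidase values was not tested.

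Values of single pools are given in the order of replicates 1, 2 and 3. LOC_Os07g47990, the first gene of the cluster, had 66.4, 65.6 and 68.3 FPKM in ZH17. In OEZ it had 128.4, 118.1 and 130.0 FPKM. Every OEZ pool lay above every ZH17 pool, with a gap of 49.8 FPKM between the lowest OEZ pool and the highest ZH17 pool. The means were 66.8 ± 1.41 and 125.5 ± 6.44 FPKM (SD, n = 3 pools each), which is a 1.88-fold higher level in OEZ and a log2 difference of 0.91 on the scale of log2(FPKM + 0.1). On that scale a difference is understated for genes of low FPKM. The lowest OEZ value was that of replicate 2, the OEZ pool with the high grain marker sum, and without this pool the log2 difference was 0.95. Among the OEZ pools, replicate 2 was the lowest for all 5 tested members. It also had the lowest total FPKM of them, at 859282.

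LOC_Os07g48010, the next member, differed in the opposite direction. It had 13.3, 22.3 and 24.6 FPKM in ZH17, and 8.53, 6.23 and 7.31 FPKM in OEZ. All OEZ pools were below all ZH17 pools, but the ZH17 pools were spread widely, and the lowest of them, replicate 1, was 4.79 FPKM above the highest OEZ pool. The mean was 20.1 ± 5.95 FPKM in ZH17 and 7.36 ± 1.15 FPKM in OEZ (SD, n = 3 pools each), 2.73-fold lower in OEZ, with a log2 difference of -1.40. It was -1.67 without ZH17 replicate 1, -1.23 without ZH17 replicate 3 and -1.29 without OEZ replicate 2, the pool with the high grain marker sum.

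LOC_Os07g48020 followed the same pattern at a higher level. In ZH17 it had 41.1, 68.9 and 83.9 FPKM, a 2.04-fold range within one genotype. In OEZ it had 32.4, 22.4 and 23.7 FPKM. The groups did not overlap, and the gap between ZH17 replicate 1 and OEZ replicate 1 was 8.66 FPKM, small beside the spread among the ZH17 pools. The means were 64.7 ± 21.7 FPKM in ZH17 and 26.2 ± 5.44 FPKM in OEZ (SD, n = 3 pools each), 2.47-fold lower in OEZ. The log2 difference was -1.26, and it ranged from -1.55 without ZH17 replicate 1 to -1.04 without ZH17 replicate 3. Without OEZ replicate 2 it was -1.16.

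LOC_Os07g48030 had 16.0, 13.8 and 12.8 FPKM in ZH17. In OEZ it had 18.5, 16.7 and 18.4 FPKM. The genotypes did not overlap here either, but the gap was narrow, at 0.696 FPKM between OEZ replicate 2 and ZH17 replicate 1. The means of 14.2 ± 1.63 and 17.8 ± 1.01 FPKM (SD, n = 3 pools each) differ 1.26-fold, with a log2 difference of 0.33, which is below the fold change of 1.5 used in the study.

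LOC_Os07g48060, the last member, was at nearly the same level in both genotypes. It had 21.6, 25.1 and 23.6 FPKM in ZH17, and 23.9, 19.4 and 23.2 FPKM in OEZ. The groups overlapped, with both the highest value in a ZH17 pool and the lowest in an OEZ pool. The means were 23.4 ± 1.79 and 22.2 ± 2.38 FPKM (SD, n = 3 pools each), and the log2 difference of -0.08 became 0.01 without OEZ replicate 2.

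The 2 members between LOC_Os07g48030 and LOC_Os07g48060 were at or near 0. LOC_Os07g48040 had 0.203, 0.0477 and 0.438 FPKM in ZH17. In OEZ it was listed at 0 in replicates 1 and 2 and had 0.270 FPKM in replicate 3, so the pools overlapped. LOC_Os07g48050 was listed at 0 in 5 of the 6 libraries and had 0.168 FPKM in OEZ replicate 1. No fold is given for these genes, since there are no counts and some of their values are listed at 0.

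**Figure D1:**
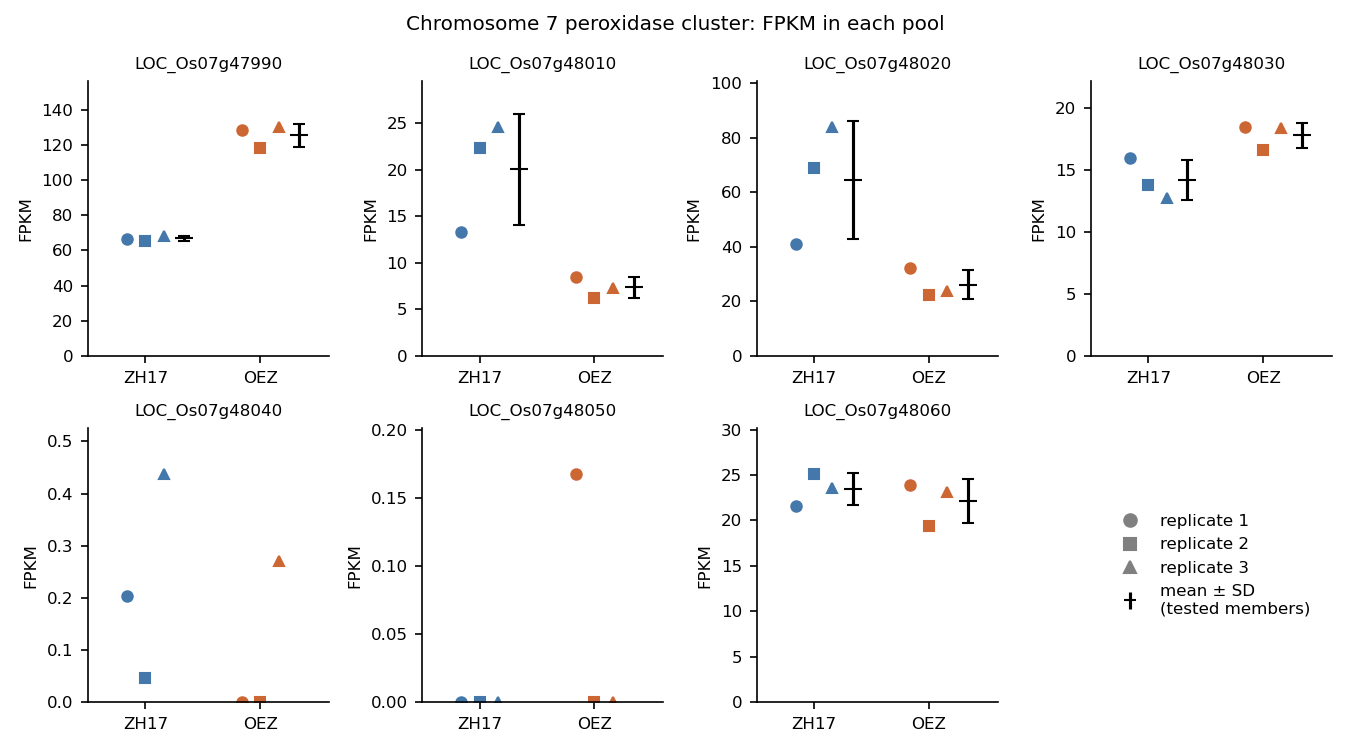
FPKM of each of the 7 members in the 3 ZH17 pools (blue) and 3 OEZ pools (orange), each panel with its own axis from 0 and the marker shape giving the replicate number; black bars are mean ± SD of 3 pools, drawn for the 5 tested members. LOC_Os07g47990 stands at 118.1 to 130.0 FPKM in OEZ against 65.6 to 68.3 in ZH17, while the ZH17 pools of LOC_Os07g48020 run from 41.1 to 83.9 FPKM, all above the OEZ pools.

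Across the 22841 tested loci, limma called 681 (2.98%) past a fold change of at least 1.5 with an adjusted p under 0.05, 357 (1.56%) of them higher and 324 (1.42%) lower in OEZ. Among the 5 tested members 1 was called higher and 2 lower, which restates how the cluster was picked. Every OEZ pool lay above every ZH17 pool in 16.0% of the tested loci and below every ZH17 pool in 13.2%. Of the tested members, 2 were above, 2 below and 1 overlapping. The median log2 difference was 0.02 over all tested loci and -0.08 over the 5 tested members, which went from -1.40 to 0.91.

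The sum of the cluster overlapped between the genotypes. The 7 members together had 158.5, 195.9 and 213.7 FPKM in ZH17. In OEZ the sum was 211.9, 182.9 and 202.8 FPKM. The means of 189.3 ± 28.2 and 199.2 ± 14.9 FPKM (SD, n = 3 pools each) differ by 9.87 FPKM, less than the SD of either genotype. Without ZH17 replicate 1 the difference turned to -5.55 FPKM. By mean FPKM, LOC_Os07g47990 was 58.8 higher in OEZ, and LOC_Os07g48010 and LOC_Os07g48020 together differed by -51.2.

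The make-up of the sum differed between the genotypes. LOC_Os07g47990 supplied 41.9%, 33.5% and 32.0% of it in ZH17, and 60.6%, 64.6% and 64.1% in OEZ. The share of LOC_Os07g48020 was 25.9%, 35.2% and 39.3% in ZH17 and 15.3%, 12.3% and 11.7% in OEZ. LOC_Os07g48010 supplied 8.40% to 11.5% in ZH17 and 3.41% to 4.03% in OEZ. The shares of LOC_Os07g48060 overlapped, at 11.1% to 13.6% in ZH17 and 10.6% to 11.4% in OEZ. As part of all FPKM in a library, the cluster took between 0.0185% and 0.0247%.

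**Figure D2:**
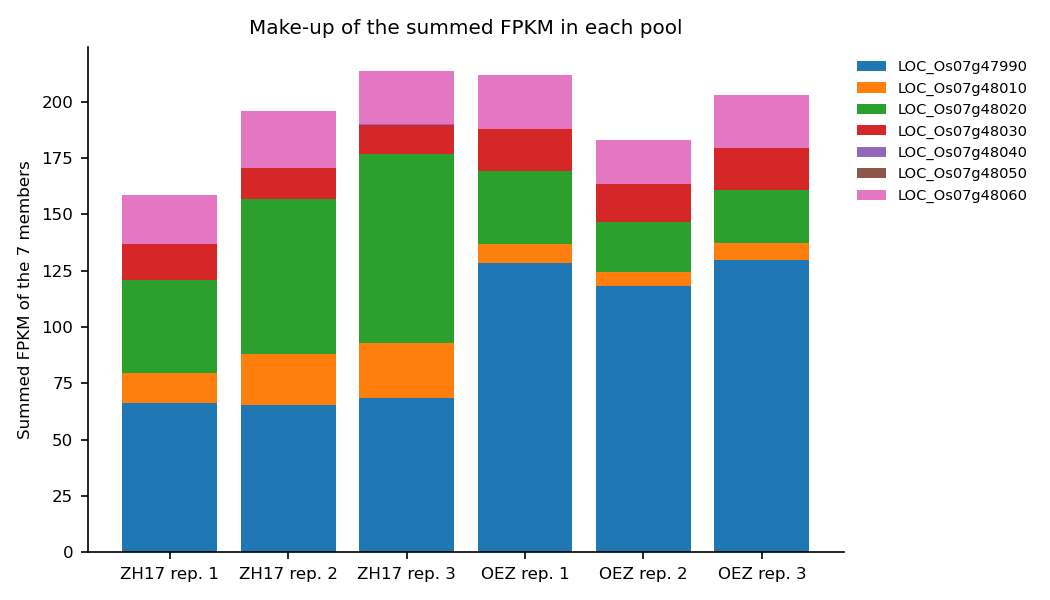
Summed FPKM of the 7 members in each of the 6 pools, each bar stacked by member. The totals of ZH17 (158.5 to 213.7 FPKM) and OEZ (182.9 to 211.9 FPKM) overlap, while the lowest segment, LOC_Os07g47990, takes 32.0% to 41.9% of the bar in ZH17 and 60.6% to 64.6% in OEZ.

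The order of the members by FPKM, which is per length and so allows genes to be compared, was not the same in the 2 genotypes. LOC_Os07g47990 had the highest level in 4 of the 6 libraries, ZH17 replicate 1 and all OEZ pools, and LOC_Os07g48020 in the other 2, ZH17 replicates 2 and 3. In ZH17 these 2 genes led with overlapping ranges. LOC_Os07g48010 overlapped both LOC_Os07g48060 above it and LOC_Os07g48030 below it, while these latter genes did not overlap each other (at least 21.6 FPKM against at most 16.0 FPKM). In OEZ LOC_Os07g47990 stood alone, with a lowest value of 118.1 FPKM against at most 32.4 FPKM for LOC_Os07g48020. LOC_Os07g48020 and LOC_Os07g48060 overlapped in OEZ, and LOC_Os07g48030 (at least 16.7 FPKM) was above LOC_Os07g48010 (at most 8.53 FPKM) in all OEZ pools. Among all tested loci, the mean level of LOC_Os07g47990 was at percentile 90.6 in ZH17 and 95.2 in OEZ, that of LOC_Os07g48020 at 90.3 and 76.1, and that of LOC_Os07g48010 at 69.7 and 44.6.

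The members also differed in how far the replicates of one genotype spread, which is given as a description. The SD of log2(FPKM + 0.1) was set beside that of the 500 tested loci nearest in mean FPKM over all 6 libraries. For LOC_Os07g48020 it was 0.53 in ZH17 (percentile 98.4 of these loci) and 0.29 in OEZ (percentile 98.6). For LOC_Os07g48010 it was 0.47 in ZH17 (percentile 96.4) and 0.22 in OEZ (percentile 94.0). Within each genotype, both genes thus varied more between pools than most loci of like mean over all 6 libraries. In OEZ both genes were below that mean, so their OEZ percentiles were not taken among loci of like level there. LOC_Os07g47990 was among the steadier loci in ZH17, with an SD of 0.03 (percentile 8.4), and near the middle in OEZ, with 0.08 (percentile 59.6). LOC_Os07g48030 (percentiles 67.6 and 41.0) and LOC_Os07g48060 (percentiles 56.0 and 88.4) lay lower than the pair in both genotypes.

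The genes LOC_Os07g48010 and LOC_Os07g48020 were also set against each other pool by pool. The ratio of LOC_Os07g48020 to LOC_Os07g48010 was 3.09, 3.09 and 3.42 in ZH17, and 3.80, 3.60 and 3.25 in OEZ. It spanned 1.23-fold over 6 pools, which is a description only, since both genes were chosen for being lower in OEZ. Within ZH17 alone the ratio spanned 1.11-fold, against 1.85-fold for LOC_Os07g48010 and 2.04-fold for LOC_Os07g48020. Within OEZ alone it spanned 1.17-fold, against 1.37-fold and 1.45-fold for the genes. Several ratios were steadier there, that of LOC_Os07g47990 to LOC_Os07g48030 with a span of 1.02-fold. The others were LOC_Os07g48060 to LOC_Os07g48030 (1.11-fold), LOC_Os07g47990 to LOC_Os07g48060 (1.13-fold) and LOC_Os07g48060 to LOC_Os07g48010 (1.13-fold). Neighbouring copies of a gene family can share reads, and how such reads were divided is not given in the sources used here, so the part of shared reads in this ratio was not tested.

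**Figure D3:**
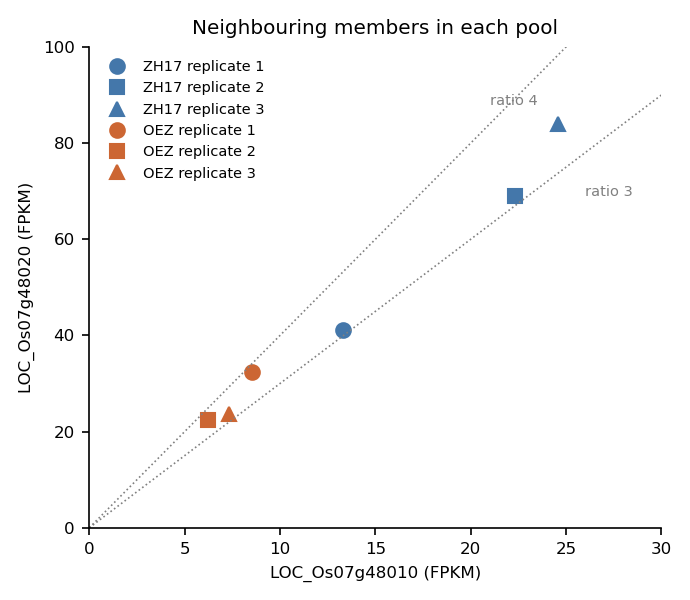
FPKM of LOC_Os07g48020 against LOC_Os07g48010 in the 3 ZH17 pools (blue) and 3 OEZ pools (orange), marker shape giving the replicate number, with dotted lines at ratios of 3 and 4. All 6 pools lie between the lines, at ratios of 3.09 to 3.80, and ZH17 replicate 1 lies between the OEZ pools and the other ZH17 pools.

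The ratio of LOC_Os07g47990 to LOC_Os07g48020 was 1.61, 0.951 and 0.814 in ZH17 and 3.96, 5.27 and 5.48 in OEZ, without overlap between the genotypes, as the choice of these genes by their opposite differences implies. LOC_Os07g48030 deviated from its genotype's mean by 0.18, -0.03 and -0.15 (log2) in ZH17, where LOC_Os07g48020 deviated by -0.59, 0.15 and 0.44. The ZH17 pool in which LOC_Os07g48020 was lowest, replicate 1, was the one in which LOC_Os07g48030 was highest. This did not hold in OEZ, where both genes were highest in replicate 1 and lowest in replicate 2, with deviations of 0.05, -0.10 and 0.04 for LOC_Os07g48030 and 0.33, -0.20 and -0.12 for LOC_Os07g48020. In ZH17, replicate 1 had the lowest grain marker sum and the lowest values of LOC_Os07g48010 and LOC_Os07g48020. In OEZ the pool with the most grain marker FPKM, replicate 2, had the lowest values of these 2 genes, as it did of the other tested members. The part of grain tissue in the values of the pair was not tested.

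Likeness to other loci was measured over the 6 libraries as the root mean square difference of log2(FPKM + 0.1) after centring each locus on its own mean, among 14700 tested loci outside the cluster with a mean of at least 5 FPKM. These profiles hold the genotype difference that chose the members, so they are a description. Nearest to LOC_Os07g48020 was LOC_Os01g47070, described as a glycosyl hydrolase (difference 0.09), followed among loci outside the cluster by LOC_Os06g35060, a heavy metal-associated domain protein (0.13). LOC_Os01g47070 had 30.4, 45.4 and 66.2 FPKM in ZH17 and 21.5, 15.1 and 16.5 FPKM in OEZ. It was also the nearest outside locus to LOC_Os07g48010 (0.13), before LOC_Os10g39680, a chitinase family gene named CHIT14 (0.13), although LOC_Os07g48020 itself was nearer (0.11).

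The profile nearest to LOC_Os07g47990 was that of LOC_Os09g25850, described as WAX2, with 103.9, 100.2 and 98.0 FPKM in ZH17 and 193.4, 181.9 and 195.4 FPKM in OEZ (difference 0.04). The second was LOC_Os09g26550, a protease Do-like gene (0.06). Both lie on chromosome 9. LOC_Os07g48030 was closest to LOC_Os05g38740 (0.04) and LOC_Os02g10700 (0.04), and LOC_Os07g48060 to LOC_Os11g33030 (0.03) and LOC_Os11g11890 (0.03). None of these loci has a description in the study's gene list, which covers only genes called different. The members' nearest outside loci were thus different for each gene except the pair.

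Of the 10 tested loci before LOC_Os07g47990 and the 10 after LOC_Os07g48060, 0 of 20 were past a fold change of at least 1.5 with a limma adjusted p under 0.05, the lowest adjusted p being 0.096. An unadjusted limma p under 0.05 was found for 6 of the 20. Such values were common over all tested loci, where an unadjusted limma p of 0.050 went with an adjusted p of 0.22. The median log2 difference of the 20 flanking loci was 0.05, and they ranged from -0.65 to 0.60. With 2.98% of all tested loci past the thresholds, 0 of 20 does not set these loci apart. In 14 of the 20 the genotypes overlapped. Every OEZ pool was above every ZH17 pool in 3 and below in 3, against 16.0% and 13.2% of all tested loci. One flanking locus passed when a single pool was left out. LOC_Os07g47790, described as an AP2 domain protein, had 15.2, 14.5 and 3.72 FPKM in ZH17 and 7.59, 6.39 and 4.28 FPKM in OEZ. Without ZH17 replicate 3 it was past the thresholds (log2 difference -1.31, limma adjusted p = 0.024).

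**Figure D4:**
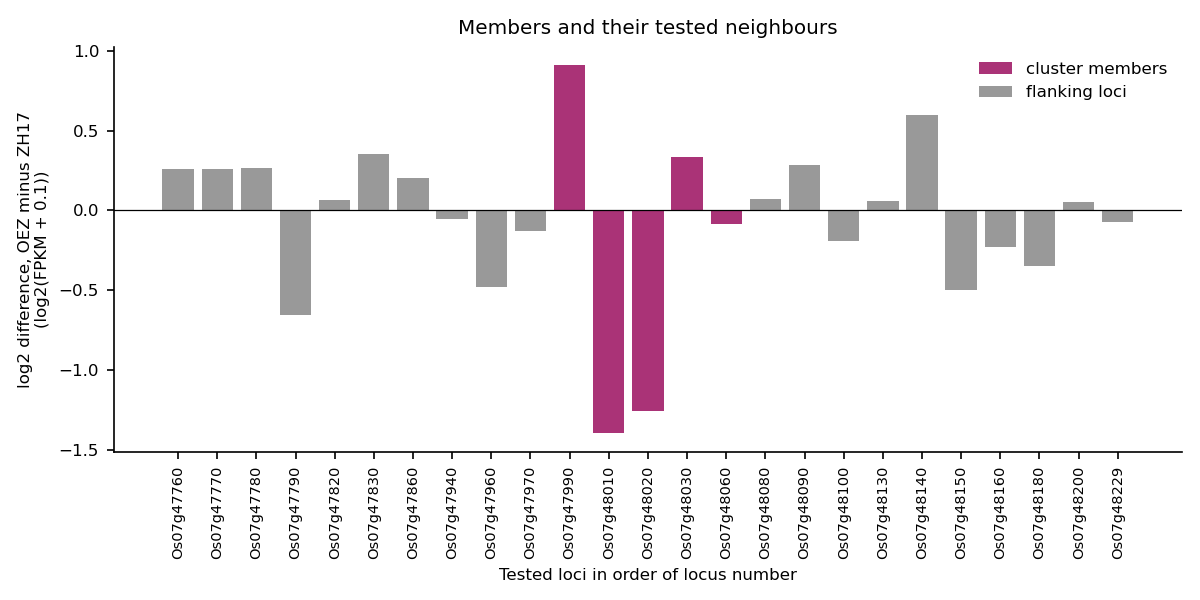
Log2 difference between OEZ and ZH17, as OEZ minus ZH17 of mean log2(FPKM + 0.1), for the 5 tested members (purple) and the 10 tested loci on each side (grey), in order of locus number. The members reach from -1.40 to 0.91, and the flanking loci stay between -0.65 and 0.60. The members were chosen by this difference and the flanking loci by position, so the ranges are not a like comparison.

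Beyond this cluster, the study's gene list, which was drawn up from the same 6 libraries and so gives no independent evidence of a direction, describes 30 further genes as peroxidases, 29 of which were tested. Of these, 9 rose and 3 fell past the limma thresholds and 17 did not pass, with a median log2 difference of 0.64 against 0.02 over all tested loci. Without OEZ replicate 3 the counts were 4 and 1, without OEZ replicate 1 they were 4 and 3, without ZH17 replicate 2 they were 6 and 1, and without ZH17 replicate 3 they were 8 and 8, with no excess of rises. Among the genes past the thresholds, the largest rise was that of LOC_Os03g25320, from 4.16 ± 0.977 to 17.7 ± 4.24 FPKM (SD, n = 3 pools, log2 difference 2.05, limma adjusted p = 0.0054). The second among them was LOC_Os07g44460 on chromosome 7, from 2.65 ± 0.402 to 6.03 ± 0.388 FPKM (log2 difference 1.16, limma adjusted p = 0.0064). The largest falls past the thresholds were those of LOC_Os05g06970, from 5.65 ± 0.484 to 2.86 ± 0.313 FPKM (log2 difference -0.96, limma adjusted p = 0.0093), and LOC_Os07g02440, from 3.86 ± 0.235 to 2.08 ± 0.180 FPKM (log2 difference -0.86, limma adjusted p = 0.014). Of the genes that did not pass, 4 had a lower log2 difference than LOC_Os05g06970, down to -1.20, and LOC_Os07g01410 had a higher one than LOC_Os07g44460 (1.17). LOC_Os07g02440 no longer passed without ZH17 replicate 2, OEZ replicate 2 or OEZ replicate 3, with a limma adjusted p of up to 0.068. With replicate numbers fitted as a block, neither LOC_Os07g02440 (limma adjusted p = 0.076) nor LOC_Os05g06970 (0.064) passed. In that fit 5 of the other peroxidases rose and 0 fell.

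The 7 members and these 30 genes were ranked together by mean FPKM, and peroxidase genes outside both sets were not ranked. LOC_Os07g47990 was number 2 of these 37 in ZH17, after LOC_Os06g32990 (75.9 FPKM), and number 1 in OEZ. LOC_Os07g48020 went from number 3 in ZH17 to number 7 in OEZ, and LOC_Os07g48010 from number 9 to number 21. LOC_Os07g48060 was number 8 and number 11, LOC_Os07g48030 number 14 and number 13. LOC_Os07g48040 and LOC_Os07g48050 were number 35 and number 37 in ZH17 and number 36 and number 37 in OEZ.

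**Figure D5:**
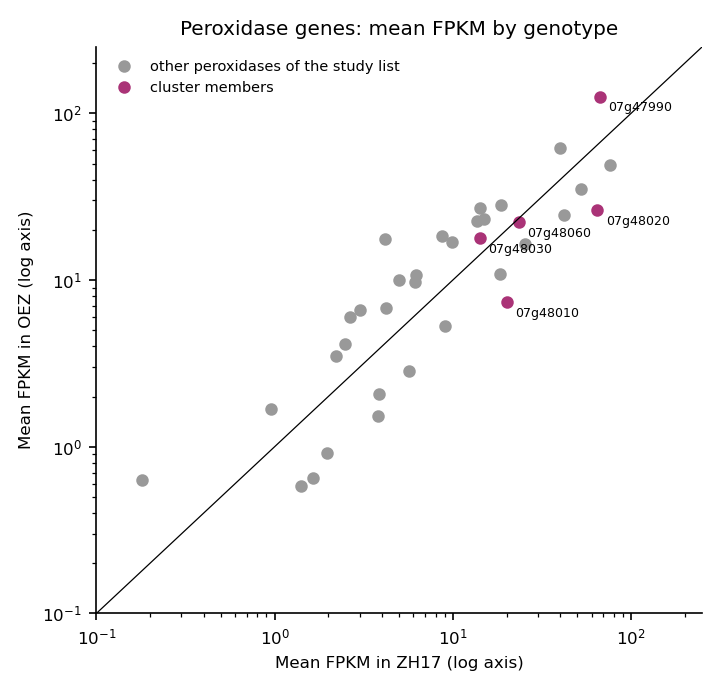
Mean FPKM of 3 pools in OEZ against ZH17, both on log axes, for the members (purple, labelled) and the other peroxidases of the study's gene list (grey); the line marks equal levels, and LOC_Os07g48040 and LOC_Os07g48050 lie below the axes' range. LOC_Os07g47990 is the highest point in OEZ at 125.5 FPKM, and LOC_Os07g48010 and LOC_Os07g48020 lie below the line.

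Other enzymes of hydrogen peroxide and of the wall were taken from the same gene list. Counts and medians here follow in part from that choice, since the list holds genes that differed in these same 6 libraries. Of its 3 further hydrogen peroxide enzymes, the ascorbate peroxidase gene LOC_Os02g34810 fell from 36.3 ± 2.47 to 21.2 ± 1.42 FPKM (SD, n = 3 pools, log2 difference -0.77, limma adjusted p = 0.0038). The catalase gene LOC_Os03g03910, whose product breaks down hydrogen peroxide, fell from 13.2 ± 1.40 to 6.46 ± 2.05 FPKM (log2 difference -1.06, limma adjusted p = 0.037). It no longer passed in 7 of 15 alternatives, among them leaving out ZH17 replicate 1, ZH17 replicate 2, OEZ replicate 1 or OEZ replicate 3 (limma adjusted p from 0.020 to 0.13 over all of them). The respiratory burst oxidase gene LOC_Os12g35610, of the enzymes that make superoxide at the cell surface, had 9.65 ± 1.16 and 6.38 ± 2.13 FPKM and did not pass (log2 difference -0.63, limma adjusted p = 0.15), though it did without OEZ replicate 1 (limma adjusted p = 0.036). Of 20 genes for phenylalanine ammonia-lyase, cinnamoyl-CoA reductase, laccase and dirigent proteins, which supply, oxidise or guide the coupling of lignin precursors and related phenolics, 10 rose, 1 fell and 9 did not pass, with a median log2 difference of 0.69. Over all tested loci 1.56% were called higher and 1.42% lower, with a median log2 difference of 0.02. The number of the 20 genes past the thresholds was 5 without ZH17 replicate 2 and 4 without OEZ replicate 1. It was 4 without OEZ replicate 2 and 3 without OEZ replicate 3. By class, the rises were of dirigent, laccase and cinnamoyl-CoA reductase genes, and the fall was of a dirigent gene. The phenylalanine ammonia-lyase genes on the list all had lower means in OEZ and did not pass (log2 differences -0.65, -0.61 and -0.74). The pools of the genotypes overlapped for LOC_Os02g41670 and LOC_Os02g41680, and genes of this enzyme outside the list were not examined. A laccase gene (-1.91), a cinnamoyl-CoA reductase gene (-1.78) and some dirigent genes were also lower without passing.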

How the data were processed

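The authors mapped paired-end reads of 6 libraries with TopHat2 to the Nipponbare reference (IRGSP-1.0, MSU annotation) and deposited FPKM values per locus and library from Cuffdiff, with versions and scaling between libraries not given in the sources used here. Groups and replicate numbers were taken from the sample titles. From the deposited FPKM, log2(FPKM + 0.1) of 22841 loci (mean over all samples 0.5 FPKM or more) was fitted in limma 3.58.1 (R 4.3.3) with a variance trend and Benjamini-Hochberg adjustment over all of them, with no replicate block. The study's thresholds were kept, 1.5-fold or more with adjusted p below 0.05. Its Cuffdiff test needs the reads and was not repeated. The limma step was tested on simulated data. Descriptive values used Python 3.11.15 and pandas 2.3.3. Marker and enzyme lists came from descriptions in the study's list of differing genes; its fold changes and p-values were not used. Named genes were the members, the 2 loci of at least 5 FPKM nearest in profile to each, the 2 largest rises and falls among other peroxidases past the thresholds, flanking loci past the thresholds and 3 hydrogen peroxide enzymes. LOC_Os07g47790, LOC_Os07g47940, the edge loci, LOC_Os07g01410 and LOC_Os06g32990 were named after their values were seen. The members and lists were chosen with earlier results of these data known. Alternatives were 2 other pseudocounts, other filters, 2 scalings, no variance trend, the replicate block, other fold criteria and leaving out each sample. Those of the named enzymes and lignin-related genes were added after seeing the data. Each library is a separate pool, so p-values measure the spread between pools.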

Additional observations from a re-analysis of the deposited data

How the results depend on the processing

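The log2 differences of LOC_Os07g47990, LOC_Os07g48010, LOC_Os07g48020 and LOC_Os07g48030 kept their sign in each of 14 alternatives, ranging from 0.88 to 0.95, -1.67 to -1.23, -1.55 to -1.04 and 0.26 to 0.42. That of LOC_Os07g48060 lay between -0.14 and 0.01, positive only without OEZ replicate 2 (0.0068). Both scalings moved the median of all tested loci by less than 0.02, and the summed FPKM difference by less than the SD between pools. Leaving out single samples, that difference ranged from -5.55 to 22.03 FPKM, all genes past the thresholds from 327 to 967, other peroxidases from 5 to 16, lignin-related genes from 3 to 15 and flanking loci from 0 to 1. Same-numbered ZH17 and OEZ samples did not deviate together over the tested loci (r from -0.06 to 0.03). Whether they were handled together is not given in the sources used here, and these correlations cannot decide it. With the replicate block, 321 genes, 5 other peroxidases and 3 lignin-related genes passed, against 681, 12 and 11 without it. Without the variance trend 7 lignin-related genes passed. Without a fold criterion 1371 genes passed, and 290 at a fold change of at least 2. The 3 pools per genotype limit every value here, and FPKM gives no counts from which to set the precision of the low members.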

Other observations

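A flanking locus before the cluster, LOC_Os07g47940, was listed at 0 in 4 of the 6 libraries and had 100.8 FPKM in ZH17 replicate 2 and 90.5 FPKM in OEZ replicate 1, so its values followed neither the genotype nor the members. It was picked out after its values were seen.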
